A study of Pistia stratiotes with 8 samples.

Results

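Among the most abundant transcripts of Pistia stratiotes roots, 71 were at least 2 times higher in every root library than in any leaf library and were still listed above 0 in leaf. They were chosen from a deposited table of 16504 transcript models as the models among the 500 highest root means whose lowest root value was at least 2 times the highest leaf value and whose leaf mean was above 0. Both conditions use the measured levels of the same 8 libraries, so the difference between leaf and root of these 71 models is a description, and no test of it is offered.

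Pistia stratiotes (water lettuce) belongs to the arum family and floats on fresh water, with a rosette of leaves at the surface and feathery roots hanging below it. The leaves carry out most of the photosynthesis, whereas the roots take up dissolved nutrients directly from the water. Both organs contain vascular tissue and an epidermis besides cells of their own, and root and leaf share the transcripts of basic cell functions. In bulk tissue fewer cells of a type and less RNA per cell cannot be told apart.

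Messenger RNA was sequenced from 4 leaf and 4 root libraries, each from the pooled tissue of 1 flask. For every flask, 1 mature plant was set in 200 ml of SH medium in a 500 ml flask, and after 10 days young plants with 3 to 4 leaves were harvested. Leaf samples were the largest emerged leaf, and root samples were roots freed of their tips and side roots, so root tips and laterals are not represented. No genotype, treatment or other group is named in the labels. Levels are normalized counts, read counts that the authors had already scaled between libraries, and 1 read was worth about 0.928 to 0.976 normalized counts in the root libraries and 1.19 to 1.45 in the leaf libraries. Estimated depth was 5814000 to 6209000 reads per library. The columns summed to between 5458151 and 5809933 normalized counts in root and between 7299221 and 8749656 in leaf. Counts are not divided by transcript length, so levels of different models are not compared as amounts of RNA molecules. Models carry numbers without gene names, so no function can be given to any of them and the tissue labels could not be checked against marker genes.

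The 71 members made up 8.17% ± 0.268 of the signal in root and 0.715% ± 0.056 of that in leaf (SD, n = 4 each). The root shares were 8.05%, 8.04%, 8.57% and 8.01% in root libraries 1 to 4, and the leaf shares were 0.635%, 0.767%, 0.724% and 0.733% in leaf libraries 1 to 4. The shares of the tissues did not overlap, as the choice of members requires. The whole root top 500 made up 38.5% ± 1.08 of the root signal and 44.4% ± 3.24 of the leaf signal. Within that list 74 models met the ratio of 2, and 3 of them were left out because they were listed at 0 in every leaf library.

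**Figure D1:**
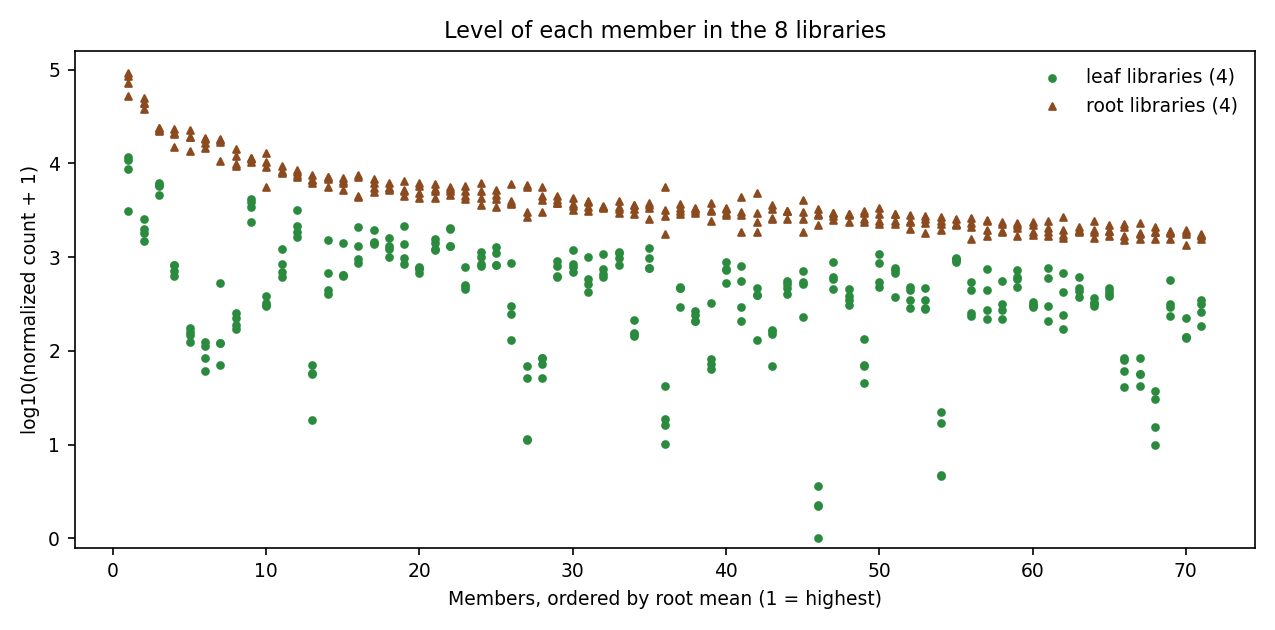
Level of each of the 71 members as log10(normalized count + 1), with members ordered by root mean along the horizontal axis. Each member has 4 green circles for the leaf libraries and 4 brown triangles for the root libraries. Root values fall from a mean of 75604 to 1680 normalized counts because the members are ordered by root mean. Leaf values, which this order does not sort, scatter widely below them.

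As ratios, leaf levels varied more widely from member to member than root levels did. The root rank sets a floor for root means, while the rule limits leaf means from above, so this is partly built in. Root means ran from 1680 to 75604 normalized counts with a median of 3303 and quartiles of 2333 and 5436, and 49 of the 71 lay under 5000. Leaf means ran from 1.28 to 8547 with a median of 464.5 and quartiles of 219.7 and 834.2. As a percentage of the root mean, the leaf mean had a median of 16.3% with quartiles of 4.49% and 23.0%. It was under 1% in 7 members, from 1 to under 5% in 13, from 5 to under 20% in 28, and 20% or more in 23. Ordered by leaf mean among all 16504 models, 4 of the members were also in the leaf top 500, and 52 were in the leaf top 5000. Of the whole root top 500, 289 models were in the leaf top 500. Root and leaf means of the members had a rank correlation of 0.44 across 71 models, against 0.65 across the other 426 models of the root top 500 that were above 0 in leaf. Both are descriptions across models that share the same libraries, and the rule itself limits how the members can lie.

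**Figure D2:**
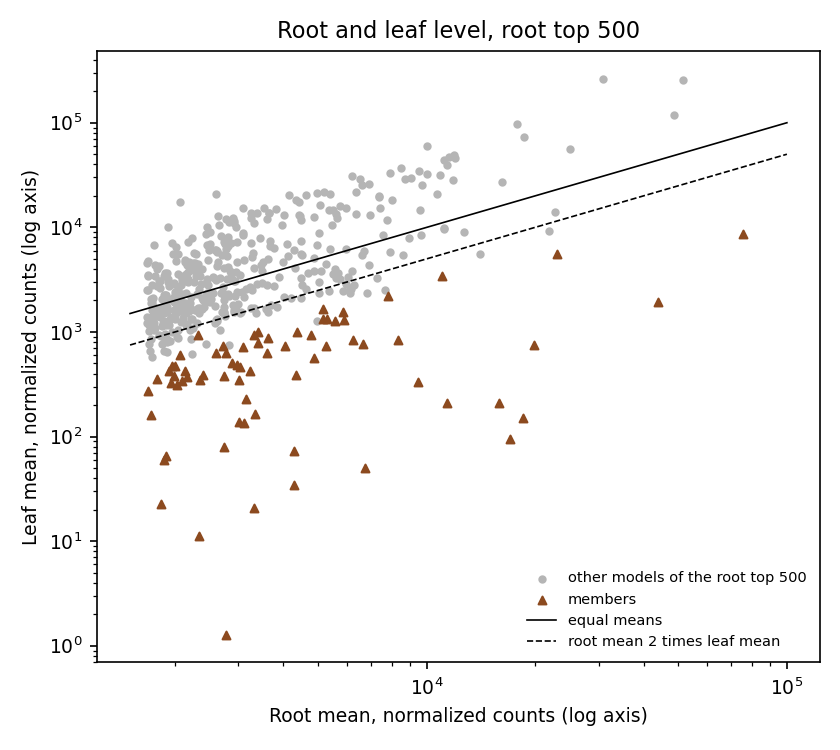
Root mean against leaf mean in normalized counts, both on log axes, for the 497 models of the root top 500 that were above 0 in leaf. Members (brown triangles) lie below the dashed line, where the root mean is 2 times the leaf mean, and reach down to a leaf mean of 1.28. Grey circles below the dashed line are models whose means pass the ratio but whose lowest root and highest leaf values do not.

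The highest member was the highest model of root altogether. Pis16203.t1 had 92266, 52568, 85473 and 72109 normalized counts in root libraries 1 to 4 and 8661, 11637, 10758 and 3133 in leaf libraries 1 to 4. It was low in leaf library 4, and no leaf value came near a root value. Its mean was 8.85 times higher in root, and it made up 1.35% ± 0.327 of a root library (SD, n = 4). In leaf it had rank 97, so the leading model of root was also among the abundant models of leaf.

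Pis10217.t1 came next among the members, at root rank 4, with 37671, 50253, 43987 and 43720 normalized counts in root libraries 1 to 4. Its leaf values were 1795, 2540, 1467 and 2010, a mean 22.5 times lower. Together these 2 members held 26.1% ± 2.81 of all member signal in root and 18.6% ± 6.52 in leaf (SD, n = 4 each), and the 10 highest held 53.5% ± 2.29 and 38.0% ± 6.08. These shares were not tested.

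Pis05946.t2 was the steadiest of the 5 highest members in root, at 22453, 23533, 23681 and 22159 normalized counts, and kept 24.5% of that level in leaf, at 4637, 5894, 6187 and 5751. Pis10209.t1 had 14765, 20850, 23094 and 20762 in root and 815.9, 712.2, 632.1 and 814.3 in leaf. Pis10723.t1 had 18998, 19238, 22492 and 13391 in root and 148.3, 175.0, 124.8 and 156.5 in leaf. These 3 members thus had root means of like size, while the leaf mean was 24.5%, 3.74% and 0.816% of the root mean.

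The 3 highest leaf means belonged to Pis16203.t1, Pis05946.t2 and Pis17724.t1. Pis17724.t1 had 3430, 4129, 2362 and 3883 normalized counts in leaf and 10201, 11271, 11525 and 11032 in root, which is 3.19 times higher on average. In all, 13 of the 71 members (18.3%) had a leaf mean over 1000 normalized counts, compared with 417 of the whole root top 500 (83.4%) and 1269 of all 16504 models (7.69%).

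At the other end, 7 members had a leaf mean under 1% of their root mean. Pis16808.t2 had 2213, 2849, 3250 and 2803 normalized counts in root and 0.0, 1.2, 2.6 and 1.3 in leaf. Its leaf values are those of 0 to a few reads, so no ratio is given for it. It was the only member listed at 0 in any leaf library, and 67 of the 71 members had at least 10 normalized counts in all 4 leaf libraries. Pis16807.t1, which carries the number directly before it, had 2437, 1920, 2691 and 2255 in root and 16.1, 3.6, 21.1 and 3.7 in leaf. Both models were thus abundant in all 4 root libraries and at no more than 21.1 normalized counts in any leaf library.

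Pis06921.t1 had 16432, 14531, 18644 and 18380 normalized counts in root and 122.1, 112.7, 82.6 and 60.4 in leaf. Its lowest root value was 119 times its highest leaf value, the largest such ratio after that of Pis16808.t2. Pis12908.t1 had 6155, 6703, 6702 and 7436 in root and 55.3, 17.5, 69.0 and 56.7 in leaf, with a ratio of 89.2. Pis03769.t1 had 2728, 3203, 1755 and 5525 in root and 15.4, 41.3, 18.0 and 9.1 in leaf. Root library 4 was the highest of its root values and leaf library 4 the lowest of its leaf values.

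The models nearest the limits show what the rule separates. The smallest ratios of lowest root to highest leaf value were 2.07 in Pis02208.t1, 2.08 in Pis10792.t2, 2.10 in Pis11924.t1, 2.10 in Pis15164.t5 and 2.16 in Pis00238.t1. Just under the limit were Pis14176.t1 at 1.97, Pis13885.t1 at 1.95 and Pis19171.t1 at 1.91. The last 2 members by root level were Pis14826.t1 at rank 483 and Pis10195.t1 at rank 495, with root means of 1720 and 1680 normalized counts. The next models to meet the other conditions were Pis19640.t3 at rank 502 and Pis08827.t2 at rank 503. No gap in the values parts the members from their neighbours at either limit. Of the models left out for a leaf level of 0, Pis15862.t1 had between 1973 and 2749 normalized counts in the root libraries, and those of Pis01208.t1 were between 1553 and 2213.

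Models meeting the ratio with leaf above 0 were more frequent at the top of the root list. They were 21 of the 100 highest models (21.0%), 28 of the next 150 (18.7%) and 22 of ranks 251 to 500 (8.8%). Past the top 500 they were 54 of ranks 501 to 1000 (10.8%) and 69 of ranks 1001 to 2000 (6.9%). On CPM, where each column total was set to 1000000, the shares were 28.0%, 26.0%, 15.2%, 15.8% and 11.4% in the same order. Over all 16504 models the share was 8.87% on the deposited scale and 12.6% on CPM. Ranking by root level itself favours models that are higher in root, so the fall along the list is partly built in and was not tested.

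All 71 members held on CPM, and 34 further models met the rule there, 105 in all. Each of those 34 was already in the root top 500 of the deposited scale with a ratio under 2. Every leaf column total was above every root column total, so CPM raises each ratio of root to leaf. A member could therefore be lost on CPM only through its root rank, and its holding there is no independent check. Over all tested models the median difference, root minus leaf, went with CPM from 0.05 to 0.49 on the log2 scale, and the median ratio of root to leaf mean over the 71 members rose from 6.14 to 8.74. With quantile normalization, which gives all libraries the same distribution, 102 models met the rule, the 71 among them. With the tissues exchanged, the rule found 132 models in leaf on the deposited scale, but 59 on CPM and 62 with quantile normalization. On the deposited scale leaf therefore had the larger number, and root had it on the other 2 scales. Of the 132 leaf-enriched models, 13 had a root mean under 5% of the leaf mean, and of the 71 root-enriched members 20 had a leaf mean under 5% of the root mean. The difference between these counts was not tested, and it too rests on the deposited scale.

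**Figure D3:**
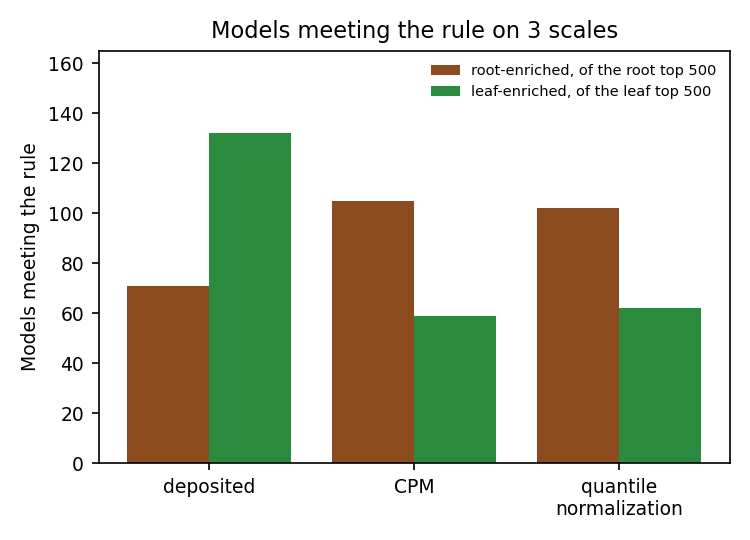
Number of models that met the rule in root (brown, of the root top 500) and in leaf (green, of the leaf top 500, tissues exchanged) on 3 scales. Root has 71, 105 and 102 models and leaf has 132, 59 and 62 on the deposited scale, on CPM and after quantile normalization.

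In a fit of all tested models (limma on log2(normalized count + 1), Benjamini-Hochberg adjusted p under 0.05), all 71 members passed the filter on low values and were called higher in root. The background in that fit was 27.2% of 13688 models called higher in root and 24.4% called higher in leaf. On CPM the calls were 6682 higher in root and 1869 higher in leaf, in place of 3729 and 3334. Because the members were chosen on this same contrast, nothing is read from their count. The log2 differences, root minus leaf, ran from 1.31 to 10.38 with a median of 2.69, beside a median of 0.05 over all tested models. The highest, 10.38, was that of Pis16808.t2, which had 0 to a few reads in leaf. It depended on the value added before the log, with 10.87 for 0.5 and 7.94 for 10 in place of 1.

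Replicates of the members spread more in leaf than in root, as did those of most tested models. The median SD of the log2 values was 0.361 among leaf libraries and 0.206 among root libraries. The leaf SD was the larger in 59 of 71 members (83.1%). The other 429 models of the root top 500 had medians of 0.341 and 0.196, with the leaf SD larger in 347 of them (80.9%). All tested models had medians of 0.347 and 0.234, with the leaf SD larger in 9737 of 13688 (71.1%). The highest leaf value was over 2 times the lowest in 30 members (42.3%), compared with 136 of the other 429 (31.7%). In root this was so for 6 members (8.45%) and for 15 of the others (3.5%). The rule disfavours a wide spread in models near the limit, and these shares were not tested against each other.

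**Figure D4:**
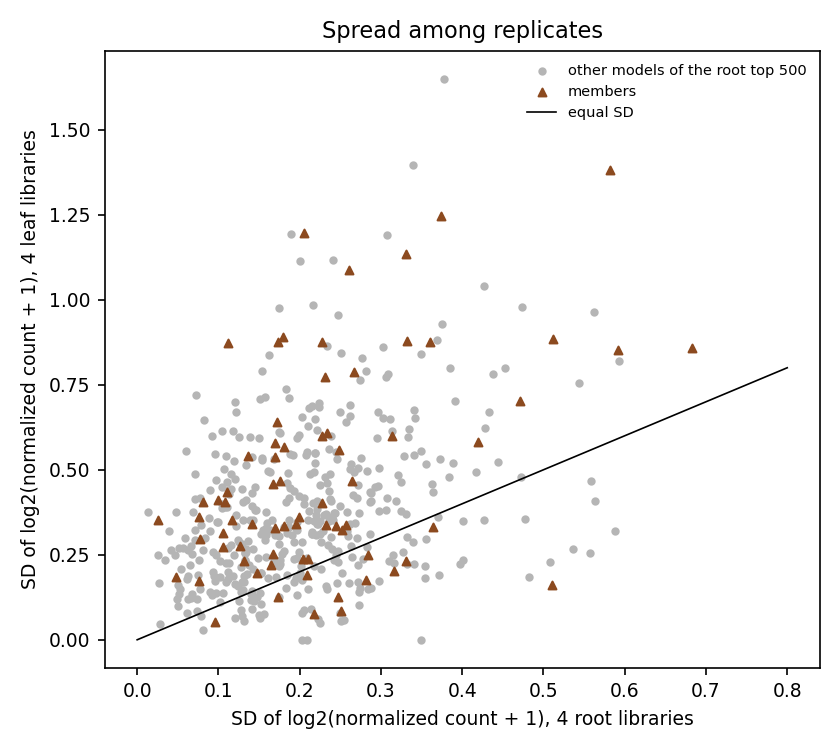
SD of log2(normalized count + 1) among the 4 root libraries against that among the 4 leaf libraries, for the 71 members (brown triangles) and the other 429 models of the root top 500 (grey circles). Of the members, 59 (83.1%) lie above the line of equal SD, as do 347 of the others (80.9%), and the members overlap the grey points throughout.

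Some members were uneven among replicates of one organ while keeping the organs apart. Pis01218.t1 had the largest leaf SD, 1.38 on the log2 scale, with 10.3, 50.0, 10.6 and 67.7 normalized counts in leaf libraries 1 to 4. In root it had 3043, 5610, 2681 and 5807, high in libraries 2 and 4 as in leaf, though equal numbers do not mark a shared flask. Pis09299.t1 had 525.3, 121.6, 69.1 and 121.4 in leaf and 10509, 17520, 18221 and 17036 in root, so library 1 was the highest in leaf and the lowest in root.

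The largest root SD belonged to Pis03769.t1, at 0.683, and to Pis03030.t1, at 0.592. Pis03030.t1 had 4862, 1845, 2929 and 2391 normalized counts in root and 389.3, 462.6, 397.2 and 128.2 in leaf. Its highest root value was in library 1, as in 12 of the 71 members (16.9%, against 29.4% of tested models).

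Root library 1 was the lowest of the 4 root libraries for 31 members (43.7%), compared with 33.8% of all tested models, and root library 4 was the lowest for 6 (8.45%), compared with 23.1%. Root library 3 was the highest for 26 members (36.6%, against 24.6% of tested models). On CPM root library 1 was the lowest for 29 members (40.8%, against 29.5% of tested models) and root library 4 for 8 (11.3%, against 29.3%). In leaf the highest library was library 1 for 21 members, library 2 for 12, library 3 for 16 and library 4 for 22. These are 29.6%, 16.9%, 22.5% and 31.0% of members, beside 36.9%, 16.7%, 21.0% and 25.4% of all tested models. On CPM the numbers were 14, 18, 12 and 27. These are 19.7%, 25.4%, 16.9% and 38.0% of members, beside 23.9%, 23.8%, 18.0% and 34.4% of all tested models. Members share libraries and are not replicates, so these are descriptions.

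Each number in the table carries 1 model only, so no member could be set beside another transcript of its gene. Of the members 63 were first transcripts by suffix (.t1, 88.7%), 6 were second ones, and 89.7% of all models were first transcripts.

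The numbering of the models was not used by the rule either. What the numbers stand for is not given in the sources used here, so models with adjoining numbers are not taken to be neighbours in the genome. Beside the members, 113 models in the table carried the number directly before or after a member, members left out, and 96 of these passed the filter on low values. Of the 96, 40 (41.7%) were called higher in root and 16 (16.7%) higher in leaf (limma, adjusted p under 0.05), against the background of 27.2% and 24.4%. Some of the 40, such as Pis01219.t1 and Pis06922.t1, were listed at 0 in every leaf library. Such models passed the filter through root alone, so they could be called in no other direction. How many there were was not worked out, and the background was filtered in the same way. At 2 to 5 numbers from a member, 104 of 368 (28.3%) were higher in root and 81 (22.0%) higher in leaf. The share higher in root was thus above that of all tested models next to the members and close to it further away. On CPM 58 of the 96 (60.4%) were higher in root and 9 higher in leaf, beside 48.8% and 13.7% of all tested models. After quantile normalization the numbers were 40 and 22, beside 26.2% and 28.0%. Whether the excess of adjoining models is larger than chance gives was not tested.

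**Figure D5:**
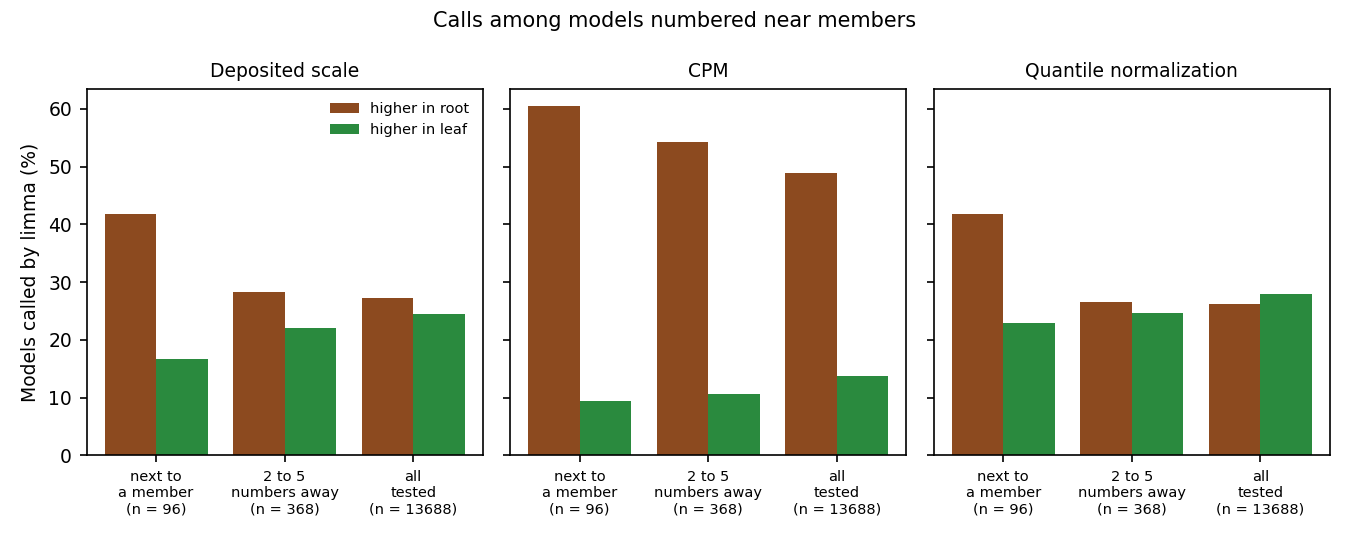
Percentage of models called higher in root (brown) and higher in leaf (green) by limma, for models numbered next to a member, 2 to 5 numbers away, and all tested models, on 3 scales. Next to a member 41.7%, 60.4% and 41.7% were higher in root on the deposited scale, on CPM and after quantile normalization, above the 27.2%, 48.8% and 26.2% of all tested models.

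The adjoining models were of ordinary level. Their median root mean was 187.8 normalized counts, against 153.5 for all tested models, and 2 of the 113 were in the root top 500. Of the 65 members with a tested adjoining model, 33 (50.8%) had at least 1 that was higher in root, compared with 37.5% of all models with a tested adjoining model. The following examples were chosen after their values were seen. Those from Pis16364.t1 on were higher in root, whereas of the 96 tested adjoining models 40 were called higher in root and 16 higher in leaf. Pis00493.t1, next to member Pis00494.t1, was among the latter. It had 2933, 2438, 2282 and 1976 normalized counts in leaf and 417.7, 428.8, 598.9 and 607.6 in root. Pis16364.t1, next to member Pis16363.t1, had 715.6, 589.0, 762.8 and 631.4 normalized counts in root and was listed at 0 in all 4 leaf libraries. Pis03770.t1, next to Pis03769.t1, had 395.1, 384.5, 181.5 and 998.8 in root and 13.5, 6.1, 5.4 and 0.0 in leaf. Both Pis03769.t1 and Pis03770.t1 had their highest root value in library 4 and their lowest in library 3. Pis19478.t1, next to Pis19479.t1, had 2094, 1309, 1500 and 1382 in root and 59.0, 23.1, 62.7 and 25.0 in leaf, at root rank 540. How reads that fit more than 1 model were divided is not given in the sources used here, so values of models alike in sequence are uncertain.

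In the order of numbers, 17 gaps between successive members were 30 or less. The limit of 30 was set after the numbers were seen, and whether members lie closer than other models was not tested. In all, 2 pairs had adjoining numbers, Pis12428.t1 with Pis12429.t1 and Pis16807.t1 with Pis16808.t2. Pis12428.t1 had 3392, 3462, 3332 and 3450 normalized counts in root, and Pis12429.t1 had 1697, 1927, 2480 and 2437. In leaf they had 1070, 661.4, 615.8 and 753.6, and 754.1, 446.7, 274.3 and 220.3. Both were highest in leaf library 1. The longest series ran from Pis10715.t1 to Pis10792.t2, where 5 of 70 listed models were members. Of the other 58 tested models in that series, 18 (31.0%) were called higher in root and 12 (20.7%) higher in leaf. Over all 12 series of members with gaps of 30 or less, 43 of the 163 other tested models (26.4%) were higher in root and 36 (22.1%) higher in leaf, near the background of 27.2% and 24.4%.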

How the data were processed

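Libraries were poly(A)-selected and read as 150 bp pairs, per the labels' protocols. Salmon and DESeq2 appear in the submitters' processing notes, with neither role nor version; transcript set and build are not given in the sources. The deposited values are a signal (normalized counts) that the authors had already scaled: 0% of values above 0 were whole, and medians of ratios to each model's geometric mean were 0.998 to 1.02. Whole reads were not recovered, so a log-scale test replaced the count test. The worth of a read is the median of the lowest band of values, and depth is the column total divided by it. All 8 columns were used. Leaf columns are numbered 1 to 4 and leaf labels 1, 3, 4 and 5, so leaf columns were assigned to the tissue only, and library numbers are those of the table. No pairing was assumed. Same-numbered columns did not deviate together (correlations of -0.02 to 0.028). As a leaf column number does not name a sample, this cannot show whether leaf and root libraries shared flasks.

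A model was tested if 4 or more libraries (3 with a library left out) reached 10 normalized counts, using limma 3.58.1 in R 4.3.3, with trended prior variance, on log2(value + 1). The fit was tested on simulated data. Python 3.11.15 with numpy 2.4.6 and pandas 2.3.3 served for the rest. Members and lists were chosen with earlier results of these data known. Named members are the 5 highest in root, the 5 largest and 5 smallest ratios, the 3 highest and 3 lowest leaf means, the 2 largest SDs in each organ and the models next to each limit. Alternatives were scales, pseudocounts, filters, limits of the rule, a replicate block and leaving out each library.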

Additional observations from a re-analysis of the deposited data

Results flagged for a closer look

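Values in groups of 4 libraries were examined with the Dixon test at the 95% level, which chance passes in about 1 of 20 groups. Among the 142 groups of the 71 members 12 passed (8.45%). These were 8 of the 71 leaf groups, beside 7.06% of leaf groups over all tested models. The others were 4 of the 71 root groups, beside 5.7% of root groups over all tested models. Of the 8 member groups that passed in leaf, 6 did so through leaf library 4, which held 22.5% of such leaf values over all tested models; this was not tested.

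Among the named models, Pis09299.t1 stood apart in both organs, with 525.3 normalized counts in leaf library 1 against 69.1 to 121.6 in the others, and 10509 in root library 1 against 17036 to 18221. Pis14826.t1 had 221.7 in leaf library 4 against 136.7 to 140.5. Pis08827.t2, no member because of its root rank of 503, had 233.9 in leaf library 4 against 4.4 to 12.6. The share of a root library held by the members was 8.57% in root library 3, apart from 8.01% to 8.05% in the others.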

How the results depend on the processing

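The number of members was 71 to 78 with single libraries left out, 35 at a ratio of 4, 125 in the root top 1000 and 115 when tissue means replaced the lowest and highest values. Leaving out a library keeps or raises each ratio of lowest root to highest leaf value, so a rise in number is largely built in. The directions of the other changes are likewise set by the rule. With members chosen anew, their share of a root library was 8.17% to 8.955% and of a leaf library 0.697% to 0.901% with single libraries left out, 10.6% and 1.45% on CPM, and 14.6% and 1.65% of the quantile-normalized columns. The median leaf level was 15.2% to 16.75% of the root level with single libraries left out and 15.8% after quantile normalization. A difference above 2-fold (limma treat, adjusted p under 0.05) was called for 2456 models in both directions together, where 1552 (11.3%) were higher in root; of the 96 models next to a member 22 (22.9%) were higher in root and 2 higher in leaf. Within 5 numbers of a member, a window added after the data were seen, 144 of 464 (31.0%, background 27.2%) were higher in root, and 258 on CPM (55.6%, background 48.8%). A replicate block on the column numbers, which need not mark shared flasks, changed the calls in both directions together from 7063 to 6574. Those higher in root among the models next to a member went from 40 to 38. Other models of the same gene gave no value, since each number is listed once. No named model changed direction in the alternatives run on the fit, and the calls lost were those of Pis13885.t1 and Pis19171.t1, neither a member, in the test against 2-fold (limma treat, adjusted p = 0.331 and 0.688). The named members were picked as extreme, so this shows no robustness. Over all 71 members, 70 were called above 2-fold in the test against 2-fold, beside 11.3% of all tested models called higher in root. Members were chosen on this contrast, so nothing is read from that count. Values near a single read in leaf limit the ratios of the lowest members.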

Other observations

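For the 2 highest members, the 3 models with the most similar log2 values over the 8 libraries were looked up. For Pis16203.t1, 1 of the 3 was a member (Pis03030.t1), and for Pis10217.t1, 0 of 3 were. The tissues form separate clusters, so no correlation is given.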
